A study of Mus musculus with 20 samples.

Results

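The rows described here are the mouse microRNAs (miRNAs) whose names begin with miR-297, miR-466, miR-467 or miR-669. They number 62 of the 1545 rows of the table: 4 miR-297, 24 miR-466, 11 miR-467 and 23 miR-669 rows, taken by name. The families were chosen with earlier results of these data known. They were measured by small RNA sequencing of 20 hearts from C57BL/6J mice, of which 5 were labelled sham, 4 MI (myocardial infarction), 4 CIH and 7 with both, MI+CIH. CIH stands in the labels as letters only and is read here as chronic intermittent hypoxia. Beyond the strain, the tissue and the group names, no age, sex, duration, surgical detail, or statement on whether a library is 1 animal is used here, so p-values measure the spread between these libraries. Levels are RPM, reads of a row per 1000000 miRNA reads of the same library. RPM contains no length term, and mature miRNAs are all of similar length.

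A miRNA is cut from a hairpin in a longer transcript, as a 5p arm, a 3p arm or both, and pairs with messenger RNAs mainly through its seed, near its 5′ end. Most of these miRNAs are encoded by tandem copies inside an intron of Sfmbt2, a Polycomb group gene that is expressed from the paternal allele in early embryos and placenta. The cluster is a rodent feature, it has grown by local duplication, and it is best known from embryonic stem cells and trophoblast rather than from heart. Many of its members carry runs of alternating bases, and near-identical copies make it hard to assign a read to a single hairpin.

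In the GRCm38 (mm10) annotation, Sfmbt2 spans chr2:10370510-10595253 on the plus strand. Of 81 annotated hairpins of the 4 families, 71 lie inside this gene, all on its strand, between chr2:10466663 and chr2:10518279. All 71 lie in a single intron, chr2:10461473-10523944, which is intron 10 of transcript Sfmbt2-201 and intron 11 of Sfmbt2-205. The annotation lists 10 copies of the miR-467a hairpin, 12 of miR-669a and 8 of miR-466b. The label of an Sfmbt2 intron cluster therefore held for most rows and not for all: 49 rows have all their hairpins in Sfmbt2, 4 have copies both there and elsewhere (miR-297a-5p, miR-466f, miR-466f-3p, miR-466f-5p), and 7 come from elsewhere (miR-466i-3p, miR-466i-5p, miR-466j, miR-466k, miR-466q, miR-467g, miR-669n). The other 2, miR-466a-3p and miR-466a-5p, were not matched to an annotated hairpin. Mir466i, the source of the second most abundant sequence, lies at chr13:17747473-17747593 on the plus strand, in intron 7 of Cdk13-201, whose gene is on the minus strand. Mir466q lies at chr3:28419943-28420018, in intron 2 of Tnik and on the same strand as that gene.

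RefSeq (GRCm38.p6) mature sequences were matched for 6 of the 62 members, and they are shown because all 6 come from hairpins outside Sfmbt2 and carry the alternating runs typical of these families. The seed, bases 2 to 8 from the 5′ end, is in capitals. The 6 seeds are all different, so these rows do not form a group by seed.
miR-466i-3p: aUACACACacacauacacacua
miR-466j: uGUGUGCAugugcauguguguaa
miR-466k: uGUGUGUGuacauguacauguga
miR-466q: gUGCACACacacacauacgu
miR-467g: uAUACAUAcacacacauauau
miR-669n: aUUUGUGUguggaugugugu
They were low: the mean over all libraries was 1.05 RPM for miR-466q, 0.450 RPM for miR-466i-3p and at most 0.0867 RPM for the other 4. miR-466i-3p lies at chr13:17747552-17747573 and miR-466q at chr3:28419988-28420007, both on the plus strand. The longest stretch in which 2 bases alternate was 11 bases in miR-466i-3p, 12 in miR-466q, 9 in miR-466k and in miR-467g, 8 in miR-669n and 7 in miR-466j. Beside them stand miRNAs that are no members but carry the same kind of repeat, miR-574-5p and miR-1187, with runs of 13 and 11 bases. miR-574-5p lies at chr5:64970328-64970350 on the plus strand and had a mean of 78.3 RPM, while miR-1187 had 0.0592 RPM.
miR-574-5p: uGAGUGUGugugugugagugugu
miR-1187: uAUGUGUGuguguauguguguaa
The most abundant members, miR-467a-5p, miR-466i-5p, miR-669c-5p, miR-669a-3p, miR-669a-5p, miR-467c-5p, miR-467a-3p and miR-466b-3p, are named only.

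Reads assigned to miRNAs numbered 1991323 to 18138415 per library, and the member rows drew 340 to 2928 of them. One read was therefore worth 0.0551 to 0.502 RPM, and a count of 0 allows up to 0.165 to 1.51 RPM, depending on the library. The libraries were cut into 3 sets by average-linkage clustering on the 351 tested miRNAs that are no members. The number of sets was fixed in the clustering and was not tested. Set A holds every sham and CIH library with MI 2 and MI+CIH 1 (11 libraries). The 6 libraries of set B are MI+CIH 2 to 5, MI 1 and MI 3. The 3 of set C are MI+CIH 6, MI+CIH 7 and MI 4. Pearson correlations of log2(RPM + 1) were 0.908 to 0.994 within sets and 0.708 to 0.931 between them, so these ranges overlap. Set B was the shallowest, at 1991323 to 9175110 reads, beside 5700599 to 18014081 for set A and 12177044 to 18138415 for set C. What separates the sets is not given in the sources used here. No sham or CIH library lies outside set A. When those groups are compared with MI or MI+CIH, the set and the group can be told apart only through MI 2 and MI+CIH 1.

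Several rows hold the same reads under 2 names. miR-467a-5p and miR-467b-5p had 7400 and 7401 reads over all libraries and differed by 1 read in 1 library. miR-467a-3p and miR-467d-3p had 258 reads each and were identical in every library. The other such pairs were miR-466a-3p with miR-466b-3p (388 and 393 reads), miR-466f with miR-466f-5p (59 and 53) and miR-466d-5p with miR-466n-5p (22 and 22). With these 5 pairs counted once, 57 distinct rows remain, and a count of members below is given both ways where it matters.

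As a class, these miRNAs were a trace of the heart's miRNA pool and were more abundant in RPM in most MI and MI+CIH libraries than in sham or CIH. The summed level of the 62 rows was 72.4, 51.4, 51.0, 64.7 and 55.8 RPM in sham 1 to 5. In the CIH libraries it was 47.5, 59.8, 60.04 and 41.9 RPM, within or just under the sham range. In MI 1 to 4 it was 280, 42.9, 241 and 118 RPM, so MI 2 lay below every sham library and the other 3 above them all. In MI+CIH 1 to 7 it was 116, 215, 448, 277, 290.1, 197 and 240.5 RPM, all above every sham and CIH library. The group means were 59.1 ± 9.27 (SD, n = 5) for sham, 171 ± 109 (n = 4) for MI, 52.3 ± 9.10 (n = 4) for CIH and 255 ± 103 (n = 7) for MI+CIH. Counting error was small beside this spread: the binomial 95% interval was 38.3 to 45.7 RPM for the lowest library, CIH 4, and 419 to 478 RPM for the highest, MI+CIH 3. Such intervals cover counting error only. They are somewhat too narrow, because reads held under 2 names entered under both. With repeated reads counted once, the means were 37.7 ± 6.11, 122 ± 88.6, 32.7 ± 5.75 and 178 ± 89.6 RPM in the same order.

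The sums followed the library sets as well as the groups. Set A had a mean of 60.3 ± 20.7 RPM (n = 11), set B 292 ± 81.6 (n = 6) and set C 185 ± 61.8 (n = 3). Within set A, MI 2 had 42.9 RPM and MI+CIH 1 had 116 RPM, against 41.9 to 72.4 RPM in the sham and CIH libraries. The size of the group difference also changed with the scaling of the libraries. With median-of-ratios size factors the mean sums were 88.04 ± 5.07 for sham, 113 ± 24.2 for MI, 97.4 ± 21.7 for CIH and 146 ± 40.6 for MI+CIH, in scaled RPM. In bulk tissue, fewer cells of a type and less RNA per cell cannot be told apart.

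**Figure D1:**
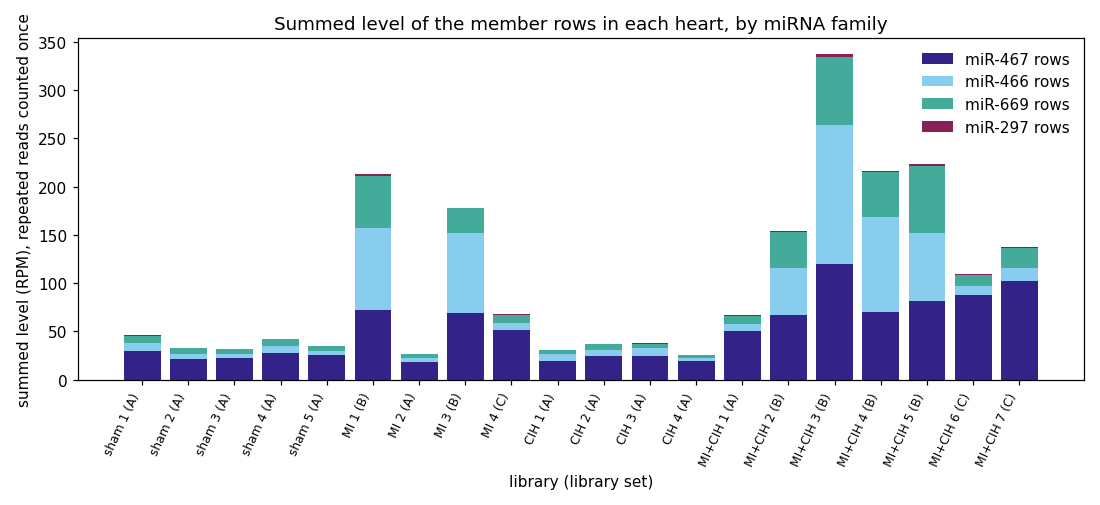
Summed level of the member rows in each library (RPM, repeated reads counted once), stacked by family, with the library set in brackets. Bars of set A libraries are short and mostly miR-467, set B bars are tall with large miR-466 and miR-669 parts, and set C bars are of middle height and mostly miR-467.

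The families did not contribute alike. With repeated reads counted once, miR-467 rows summed to 25.3 ± 3.68 RPM in sham, 52.6 ± 24.6 in MI, 21.7 ± 3.17 in CIH and 82.8 ± 23.0 in MI+CIH. The miR-466 rows summed to 5.57 ± 1.51 RPM in sham and 6.53 ± 2.31 in CIH, with 7.16 to 145 RPM over the 7 MI+CIH libraries. The miR-669 rows summed to 6.53 ± 1.03 RPM in sham, 4.29 ± 1.02 in CIH and 8.66 to 70.2 in MI+CIH. The miR-297 rows summed to at most 2.94 RPM in any library. Rows with all hairpins in Sfmbt2 made up most of the sum in every library. The rows from elsewhere summed to 0.880 to 5.90 RPM across sets A and C and to 32.4 to 111 RPM in set B, where the Sfmbt2 rows summed to 107 to 218 RPM.

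Of the 62 rows, 60 had at least 1 read and 14 had a read in all 20 libraries, while miR-466l-3p and miR-669j had none. Mean levels were under 1 RPM for 43 rows and under 0.1 RPM for 24. The number of rows with a read was 31.8 ± 6.18 in sham, 40.5 ± 7.85 in MI, 31.25 ± 3.86 in CIH and 39.7 ± 5.62 in MI+CIH. Thinned to the depth of the shallowest library, the expected numbers were 19.0, 26.8, 16.9 and 30.0. miR-467a-5p, miR-466i-5p and miR-669c-5p together held 64.7% of the mean sum with repeated reads counted once. The first 2 ranked 180 and 221 by mean RPM among all 1545 rows.

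miR-467a-5p, the main 5p product of the cluster, was the most abundant member. Its level was 24.1, 17.0, 18.2, 20.3 and 19.9 RPM in sham 1 to 5 and 16.2, 21.2, 20.98 and 15.5 RPM in CIH 1 to 4. It was 48.5, 14.9, 55.8 and 48.8 RPM in MI 1 to 4, and in the 7 MI+CIH libraries it ran from 46.7 to 97.1 RPM with a median of 54.2. Every MI+CIH library was above every sham and CIH library, and MI 2 was the only MI library that did not lie above all 5 sham libraries. Of all rows with a read, 4.59% were higher in every MI+CIH than in every sham library, and 9.18% than in every CIH library. MI+CIH 1, in set A, had the lowest MI+CIH value and still lay above the other set A libraries, of which the highest was sham 1. The highest values were in set C, with a mean of 76.7 RPM against 57.7 in set B and 21.4 in set A.

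miR-466i-5p, from the hairpin in the Cdk13 intron, had another pattern. It was 1.73, 1.21, 0.782, 4.03 and 2.64 RPM in sham 1 to 5 and 4.19, 2.0, 5.70 and 1.18 RPM in CIH 1 to 4. In MI 1 to 4 it was 44.9, 1.45, 68.2 and 1.21 RPM, and in MI+CIH 1 to 7 it was 1.22, 28.6, 105, 79.8, 25.7, 0.983 and 1.72 RPM. The 6 libraries of set B were all at 25.7 RPM or more, and the other 14, including all of set C, were at 5.70 or less. MI and MI+CIH thus each held libraries at the sham level and libraries far above it, and their means (28.9 ± 33.3 and 34.7 ± 41.7 RPM) describe no single library.

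The miR-669 products of the cluster were intermediate between these patterns. miR-669c-5p was 1.19 to 2.02 RPM in sham and 0.834 to 1.01 in CIH, with no overlap between those groups. It was 14.5, 1.38, 10.3 and 2.65 RPM in MI 1 to 4, and 1.67 to 26.8 RPM (median 12.9) in MI+CIH. miR-669a-3p was 0.702 to 2.01 RPM in sham, 0.279 to 1.06 in CIH, 20.5, 0.483, 5.61 and 2.10 in MI 1 to 4, and 1.72 to 23.8 (median 7.03) in MI+CIH. For both, the set B libraries were highest (means of 17.8 and 15.05 RPM), set A lowest (1.34 and 1.08), and set C in between (3.81 and 3.98). miR-669a-5p, the other arm of the same hairpin family, was lower and less separated: 0.945 to 2.98 RPM in sham, 1.24 to 6.98 in MI, 1.01 to 2.34 in CIH and 1.44 to 15.3 in MI+CIH, with overlap between all groups.

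The lower members of the miR-467 and miR-466 families divided between the same patterns. miR-467c-5p was 1.08 to 1.76 RPM in sham, 0.751 to 1.35 in CIH, 9.70, 0.828, 4.13 and 0.827 in MI 1 to 4 and 0.832 to 13.3 (median 5.20) in MI+CIH, with set C at the level of set A. miR-467a-3p was 0.146 to 1.23 RPM in sham, 0.193 to 0.501 in CIH, 0.276 to 6.32 in MI and 0.611 to 13.2 in MI+CIH. miR-466b-3p was 0.270 to 1.28 RPM in sham, 0.338 to 1.06 in CIH, 0.690 to 9.92 in MI and 1.39 to 8.84 in MI+CIH, so MI+CIH did not overlap sham or CIH. miR-467e-5p, named after its values were seen, moved little between sets: their means were 1.81, 2.09 and 1.38 RPM in A, B and C, and its range over all libraries was 0.487 to 4.42 RPM. Of all members with a read, counted once, 15 of 55 were higher in every set B library than in every set A library. The share over all rows with a read was not computed, so the count is a description only. Among those that passed the filter of the test given further on it was 6 of 7, all but miR-669a-5p, beside 192 of all 360 miRNAs that passed. Apart from miR-467a-5p, those members passed the filter through the libraries in which they were high, so this count is no support for a difference.

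**Figure D2:**
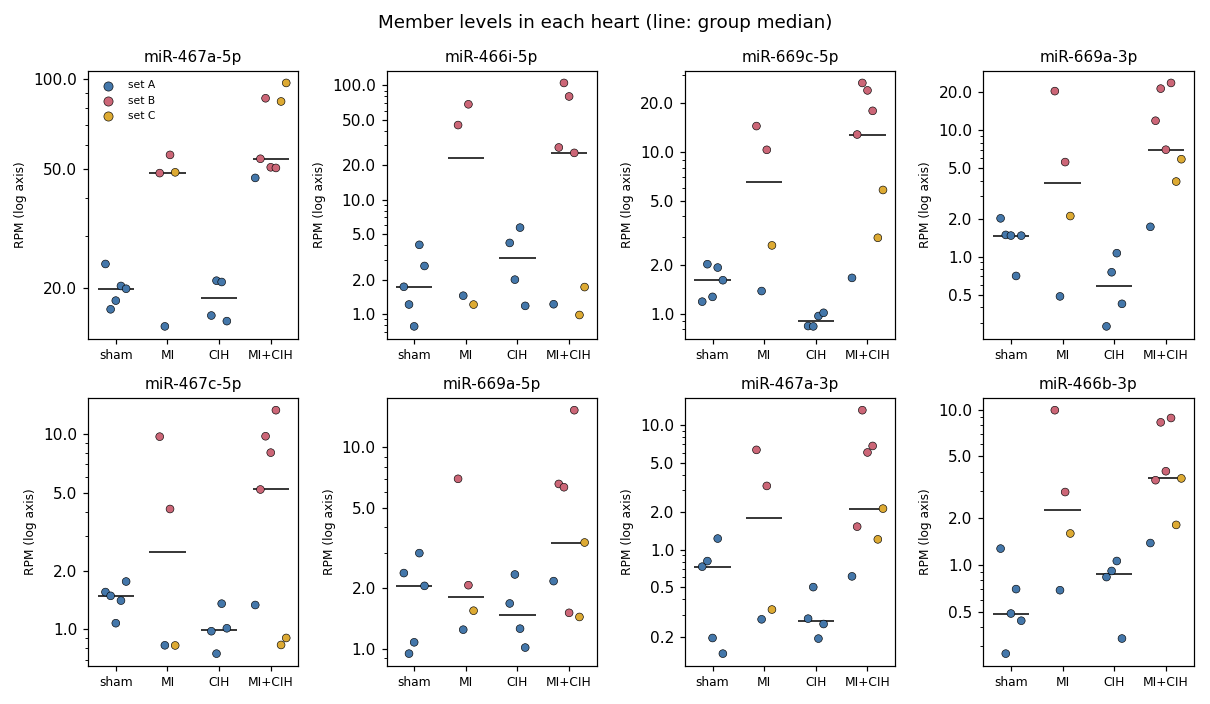
Levels of 8 members in each library (RPM, log axis) by group, coloured by library set, with a line at the group median. miR-467a-5p is raised in sets B and C, miR-466i-5p and miR-467c-5p in set B and not in set C.

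Ratios of members within a library do not depend on how that library was scaled. The share of miR-467a-5p in the summed member level (repeated reads once) was lowest in set B, at 22.6% to 35.1%. It was 47.9% to 69.7% in the libraries of set A and 70.9% to 77.2% in those of set C. The ratio of miR-466i-5p to miR-467a-5p was highest in set B, from 0.508 to 1.57. It was 0.0261 to 0.272 for set A and 0.0117 to 0.0249 for set C. Set B lay apart, while sets A and C nearly met. The ratios next to each other, 0.0261 in MI+CIH 1 and 0.0249 in MI 4, each rest on 22 reads of miR-466i-5p. By group, that ratio was 0.103 ± 0.0622 in sham (n = 5), 0.175 ± 0.104 in CIH (n = 4), 0.57 ± 0.598 in MI (n = 4) and 0.554 ± 0.62 in MI+CIH (n = 7). The 3p arm held a median of 41.7% of miR-669a reads in set A (range 14.3% to 61.1%). Its median was 73.8% in set B (60.9% to 82.4%) and 63.7% in set C (57.6% to 73.2%). Single values of this share rest on 14 to 252 reads, so their exact binomial intervals are wide: in CIH 1 it was 14.3% with an interval of 1.78% to 42.8%. By group the 3p share was 45.1% ± 16.6 in sham, 28.5% ± 13.2 in CIH, 58.3% ± 21.6 in MI and 66.6% ± 12.6 in MI+CIH. For miR-467a the 5p arm dominated everywhere, and the 3p share reached 13.2% at most, in set B (from 2.75%), beside 0.730% to 5.69% for set A and 0.673% to 2.15% for set C. Both arms are given as the table names them, and reads of near-identical copies could have been split or shared in the authors' counting.

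**Figure D3:**
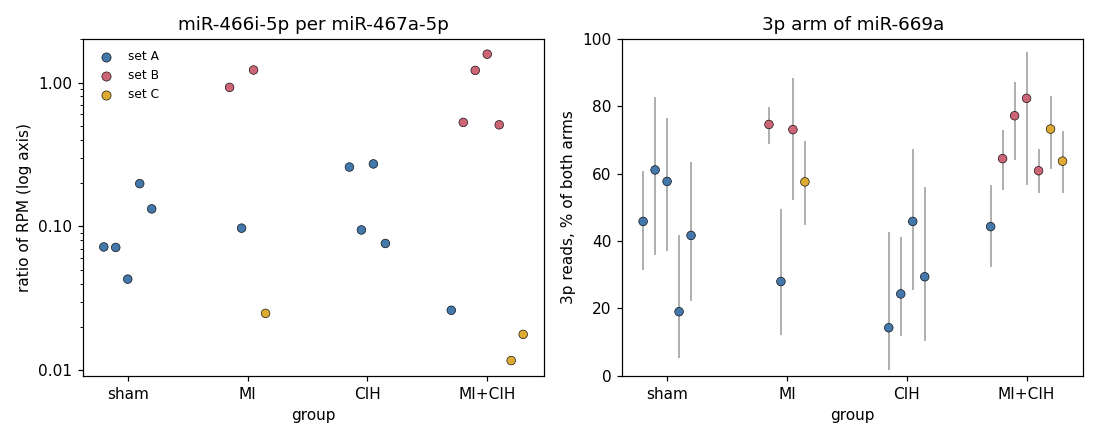
Left, the ratio of miR-466i-5p to miR-467a-5p in each library (log axis); right, the 3p share of miR-669a reads with exact binomial 95% intervals. In both, points are libraries coloured by set; the ratio lies above 0.5 in the 6 set B libraries and below 0.3 in all others, while the 3p share overlaps between sets.

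The test across all miRNAs was limma on log2(RPM + 1), two-sided, with Benjamini-Hochberg adjustment over the 360 rows that reached 5 RPM in 4 libraries or more. Only 9 of the 62 members passed that filter (7 with repeated reads counted once), and 53 did not, at levels of up to 9.92 RPM in a library. Just inside were miR-467a-3p, miR-467d-3p and miR-669a-5p with 4 libraries at 5 RPM, and just outside were miR-466a-3p, miR-466b-3p and miR-467d-5p with 3. Apart from miR-467a-5p and miR-467b-5p, the tested members reached 5 RPM in no set A library, or in 1 (miR-466i-5p, in CIH 3), so they passed the filter through the libraries in which they were high. Counts over the 9 are therefore a description and no support for a difference.

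In MI+CIH against sham, the contrast of combined injury and CIH with neither, 6 of the 9 tested members rose (4 of 7 counted once), and none fell. The background was 56.7% of all 360 miRNAs called (188 higher and 16 lower), so the members' share was near that of the whole table. The median log2 change was 1.65 over the members and 1.39 over all 360. miR-467a-5p rose by 1.65 (SE 0.38, limma adjusted p = 0.0026) and miR-669c-5p by 2.01 (SE 0.57, adjusted p = 0.0081). miR-669a-3p rose by 1.94 (SE 0.58, limma adjusted p = 0.0117), and the rows miR-467a-3p and miR-467d-3p, which hold the same reads, by 1.41 (SE 0.53, adjusted p = 0.030). The last call was lost without sham 3 (log2 change 1.31) or sham 5 (1.29). miR-466i-5p had the largest estimate, 2.23, with the largest error (SE 1.02, limma adjusted p = 0.0673) and did not pass. It passed without MI+CIH 1, 6 or 7, at 2.66, 2.69 and 2.61, and with a term for the library set its estimate was -0.35. miR-467c-5p (1.01, limma adjusted p = 0.1165) did not pass either, with a negative estimate under TMM scaling (-0.18) and in edgeR (-0.11). miR-669a-5p (0.84, adjusted p = 0.127) was also short of the threshold, and its estimate was negative under both other scalings and both count tools.

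The member calls changed with the scaling of the libraries. With median-of-ratios size factors the median change of all 360 miRNAs was 0.17, 31.7% of them were called (64 higher and 50 lower), and 0 of the 9 members passed, with 2 at an unadjusted p under 0.05. The estimates of the called members were still above 0 there: 0.35 for miR-467a-5p, 0.92 for miR-669c-5p (limma adjusted p = 0.0535), 0.89 for miR-669a-3p (adjusted p = 0.0776) and 0.64 for miR-467a-3p. Under TMM scaling they were 0.09, 0.71, 0.68 and 0.48, with 0 members called, 1 at an unadjusted p under 0.05, and 31.7% of all miRNAs called. On the recovered reads edgeR called 0 members (1 had an unadjusted p under 0.05) and 23.6% of all miRNAs. The members called by DESeq2 were miR-466i-5p and miR-669c-5p, 2 of 9 beside 40.6% of all. With the library set as a term 0 members and 0.0% of all miRNAs passed, with 0 members at an unadjusted p under 0.05, and the estimate for miR-467a-5p was 0.73 (limma adjusted p = 0.618).

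**Figure D4:**
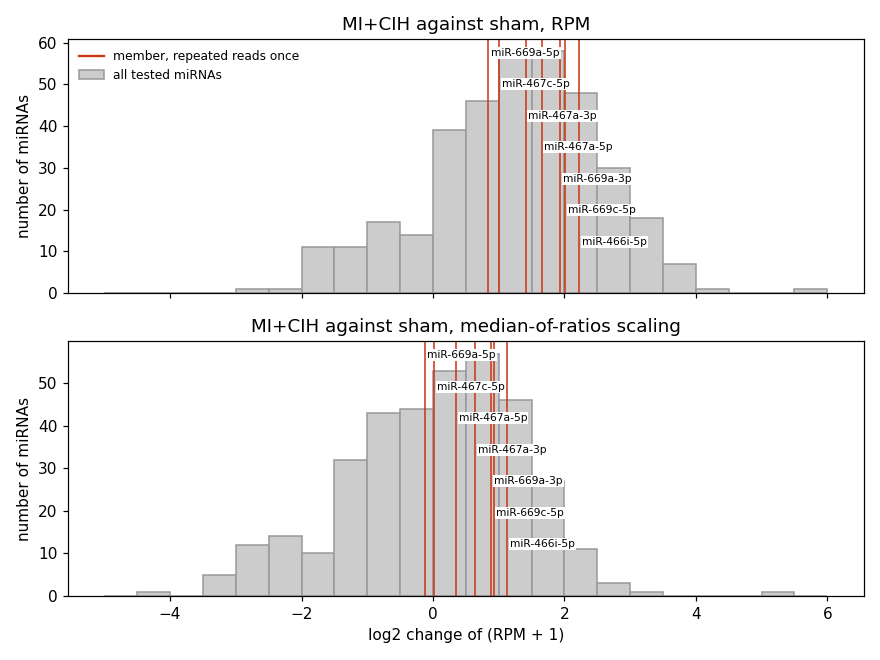
Number of tested miRNAs (grey bars) by log2 change in MI+CIH against sham, on RPM (top) and with median-of-ratios scaling (bottom), with red lines at the 7 tested members counted once. The members lie inside the body of the distribution in both panels, and in the lower panel miR-669a-5p lies below 0.

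In MI+CIH against CIH, which shares the MI+CIH libraries with the comparison above, 6 of 9 members rose (4 of 7 counted once), against a background of 56.9%. The median change was 1.76 over the members and 1.51 over all 360. miR-669a-3p rose by 2.51 (SE 0.63, limma adjusted p = 0.0035) and miR-669c-5p by 2.44 (SE 0.61, adjusted p = 0.0035). These 2 were also called with median-of-ratios scaling (1.43 and 1.26, limma adjusted p = 0.0173 and 0.0214), with TMM scaling, and by edgeR and DESeq2. The backgrounds there were 26.1%, 25.0%, 20.8% and 36.9% of all miRNAs in that order. miR-467a-5p rose by 1.76 (SE 0.41, limma adjusted p = 0.0027), but this call was lost under both other scalings (0.17 with median-of-ratios and -0.048 with TMM), in edgeR (0.19) and in DESeq2 (0.32). miR-467a-3p rose by 1.68 (SE 0.57, limma adjusted p = 0.0184), and DESeq2 also called it, while both other scalings and edgeR did not. Not past the threshold were miR-467c-5p (1.29, limma adjusted p = 0.0647; -0.01 under TMM scaling), miR-669a-5p (0.98, adjusted p = 0.098; below 0 under both other scalings) and miR-466i-5p (1.79, adjusted p = 0.158; -0.78 with the library set as a term). With the library set as a term no member passed here either, with 2 at an unadjusted p under 0.05, against 0.0% of all miRNAs.

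In MI against sham limma called 0 of 9 members, against 0.0% of all miRNAs, and edgeR (0.0% of all) and DESeq2 (10.8% of all) also called 0 members. At an unadjusted p under 0.05 limma had 0 members and 101 of the 360 miRNAs, edgeR 0 members and DESeq2 1. With the library set as a term it was 0 members, and 2 of the 9 changes were above 0. The 9 log2 changes lay between 0.31 and 1.99, with a median of 0.89 beside 0.94 for all miRNAs. miR-467a-5p had 0.89 (95% interval -0.01 to 1.8, limma adjusted p = 0.175), with -0.20 under TMM scaling and -0.15 in edgeR. miR-669c-5p had 1.27 (interval -0.09 to 2.64, limma adjusted p = 0.192). The result rested on MI 2: without it miR-467a-5p and miR-467b-5p were called (1.32, limma adjusted p = 0.0181), and so were 31.4% of all miRNAs.

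In CIH against sham limma, edgeR and DESeq2 each called 0 of 9 members, with 0 at an unadjusted p under 0.05 in any of them, and the background was 0.0% in limma and edgeR and 0.278% in DESeq2. The median change was -0.27 over the members and -0.21 over all miRNAs, and 8 of the 9 were below 0. The interval for miR-467a-5p was -1.01 to 0.79 around -0.11. For miR-669a-3p it was -1.97 to 0.81 around -0.58, and for miR-669c-5p -1.8 to 0.93 around -0.43. The intervals are wide enough to hold a change of 1 log2 unit down in all 3. miR-467c-5p stood at -0.28 (interval -1.59 to 1.03).

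Adding CIH to MI gave no member past the threshold: in MI+CIH against MI limma called 0 of 9 (background 0.0%), with 0 members at an unadjusted p under 0.05, and edgeR and DESeq2 called 0 of all miRNAs. With the library set as a term 0 members and 0.556% of all miRNAs were called, with 3 of 9 members and 48 of 360 miRNAs at an unadjusted p under 0.05. miR-467a-5p stood at 0.76 (interval -0.08 to 1.60, limma adjusted p = 0.895) and miR-669a-3p at 0.86 (interval -0.44 to 2.16). The interaction, which asks whether CIH changed a level by another amount after MI than after sham, was also past the threshold for 0 of 9 members and 0.0% of all miRNAs, with 0 members at an unadjusted p under 0.05 and 0 called by edgeR and DESeq2. With the set term it was 0 called and 2 of 9 at an unadjusted p under 0.05, beside 66 of all 360. For miR-669a-3p it was 1.43 (interval -0.47 to 3.33) and for miR-467a-5p 0.87 (interval -0.37 to 2.10).

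The rows below the filter can be described by overlap. Of 60 members with a read, 6 were higher in every MI+CIH library than in every sham library, against 4.59% of the 1416 rows with a read: miR-297b-3p, miR-466a-3p, miR-466b-3p, miR-466d-3p, miR-467a-5p and miR-467b-5p, of which the last 2, and the miR-466a-3p and miR-466b-3p rows, are the same reads. Against CIH the count was 12 of 60, beside 9.18% of all rows. It includes both rows of the same reads for miR-466a-3p and miR-466b-3p, miR-467a-5p and miR-467b-5p, and miR-467a-3p and miR-467d-3p. In MI against sham it was 2 (miR-466b-5p and miR-669c-3p), beside 2.19%. Lower in every CIH than in every sham library was miR-669c-5p alone, beside 1.27% of rows. No member was higher in every CIH than in every sham library, beside 0.141% of rows. None was lower in every MI or MI+CIH library than in every sham library (0.636% of rows each), or lower in every MI+CIH than in every CIH library (0.141%). No member separated MI+CIH from MI, beside 0.0706% of rows higher and 0.0% lower. With a filter of 0.5 RPM in 4 libraries, 30 members were tested and 16 rose in MI+CIH against sham, beside 41.6% of 622 miRNAs, and 17 in MI+CIH against CIH, beside 44.5%. Counted once, these were 13 and 14 of 26. With a filter of 1 read, 8 of 60 members rose in MI+CIH against sham, beside 9.53% of 1416 miRNAs, and 9 in MI+CIH against CIH, beside 11.7%. Counted once, these were 6 and 7 of 55. Among the calls added at 0.5 RPM were miR-466b-3p (1.60), miR-466d-3p (1.33) and miR-466h-3p (1.33).

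miRNAs outside the 4 families give a frame for these values. miR-574-5p, whose repeat is shown above, was 4.20 to 13.5 RPM in sham, 4.13 to 5.17 in CIH, 118, 4.97, 190 and 19.6 in MI 1 to 4, and 14.4 to 508 in MI+CIH. The lowest of its set B libraries was at 118 RPM and set C was at 19.6 to 23.2 RPM. miR-574-5p rose by 3.25 (SE 0.86) and its other arm, miR-574-3p, by 3.05 (SE 0.81) in MI+CIH against sham, both with a limma adjusted p of 0.0051. The median change of these 2 rows was 1.85 with median-of-ratios scaling and 1.58 with TMM scaling, with both still called. With the library set as a term it was 0.48, with 0 called. Of the 85 rows of the imprinted Dlk1-Dio3 cluster, another large miRNA cluster active in embryo and placenta, 41 were tested. In MI+CIH against sham 27 of the 41 rose (median 1.61), beside 188 of all 360 miRNAs. Under median-of-ratios scaling 10 were higher and 1 lower, beside 64 and 50 of all 360. The embryonic stem cell clusters miR-290 and miR-302 were at a mean sum of 0.634 RPM over 15 rows, with 0 rows passing the filter. The X-linked testis cluster had 22 rows, of which 1 was tested. That row was not called on RPM in MI+CIH against sham (-0.85), but it was called lower under median-of-ratios (-1.74) and TMM scaling (-1.93) and by edgeR (-2.10) and DESeq2 (-1.98).

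The tissue label held: the heart muscle markers miR-1a-3p, miR-133a-3p, miR-208a-3p and miR-499-5p summed to 88403 to 317712 RPM. Sums of cell type markers also differed between the library sets, but not in the same way for each list. The heart muscle sum was 88403 to 184642 RPM in set B, beside at least 183298 RPM for set A and 241459 RPM for set C, with 1 of 4 higher and 3 of 4 lower in MI+CIH against sham (0 higher and 3 lower under median-of-ratios scaling). Fibroblast markers (miR-199a-3p, miR-199a-5p, miR-214-3p) had sums of 3935 to 6822 RPM in set C, beside 1263 to 5709 for set B and 187 to 1844 for set A, and 3 of 3 rose (1 of 3 under median-of-ratios scaling). Endothelial markers (miR-126a-3p, miR-126a-5p) were also highest in set C, with sums of 24768 to 50262 RPM, beside 5976 to 10970 for set A and 3162 to 7513 for set B, with 0 higher and 1 of 2 lower. Smooth muscle markers were lowest in set C, with sums of 25883 to 41639 RPM, beside 130564 to 272741 over the other libraries. Leukocyte and erythroid markers had their highest sums in set B, at 856 to 1694 and 5072 to 15221 RPM, against at most 624 and 3807 RPM in set A. The single markers did not all follow the sums. In MI+CIH against sham, 1 of 4 leukocyte and 1 of 2 smooth muscle markers were higher with 0 lower. Of 3 erythroid markers, 1 was higher and 1 lower. Under median-of-ratios scaling each of these 3 lists had 0 higher and 1 lower. None of these lists had a marker at 0 in any library, except 1 of the 4 leukocyte markers. The part of these differences in the members' levels was not tested.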

How the data were processed

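Small RNA libraries of 20 hearts were deposited as 1 table. Its values carry a TPM header, but by the values they are RPM as computed by the authors: each column sums to 1000000 and no length enters. The submitters' processing notes name mm10, Bowtie and DESeq 1.8.3; the miRBase release, the counting rule and the treatment of reads that match several hairpins are not given in the sources used here. All values (100%) were whole multiples of 1 read, within 0.05 reads, so reads were recovered.

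Rows that reached 5 RPM in 4 libraries or more were fitted together with limma 3.58.1 in R 4.3.3 on log2(RPM + 1), a mean per group over 20 libraries (16 residual degrees of freedom, prior 5.90), moderated with a trend, two-sided. p-values were adjusted by Benjamini-Hochberg over the 360 rows, for each of the 6 contrasts separately, and called under 0.05. Alternatives were pseudocounts of 0.5 and 5 RPM, filters of 0.5 RPM in 4 libraries and of 1 read, median-of-ratios and TMM scaling, DESeq2 1.42.0 and edgeR 4.0.16 (quasi-likelihood) on recovered reads, the replicate number as a block, the library set as a term, and leaving out libraries. The set term together with the lower filter was chosen after seeing the data. Rows were called the same reads where they agreed within 5% or 2 reads in every library and had at least 20 reads. Hairpins were placed with GENCODE M21 and sequences taken from RefSeq, both GRCm38. The scripts were tested on simulated data.

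Named are the 10 members with the highest mean, members past the threshold and the 3 with the smallest p in each contrast; names outside this were chosen after their values were seen. Members and lists were chosen with earlier results of these data known.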

Additional observations from a re-analysis of the deposited data

Results flagged for a closer look

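In 36 groups of 4 to 7 libraries (9 quantities in 4 groups), the highest or lowest library was compared with the rest of its group. The quantities were the summed RPM of the members and the levels of named members, with repeated reads counted once. These members were miR-467b-5p (the reads of miR-467a-5p), miR-466i-5p, miR-669c-5p, miR-669a-3p, miR-467c-5p, miR-669a-5p, miR-467a-3p and miR-466b-3p. Of these, miR-466b-3p had not passed the filter of the test. The highest or lowest library stood apart in 2 groups, both for miR-669a-5p, and chance alone picks out about 1 group in 20. miR-669a-5p was 6.98 RPM in MI 1, against 1.24 to 2.07 RPM in the other MI libraries, a gap of 0.856 of the group's range. It was 15.3 RPM in MI+CIH 5, against 1.44 to 6.58 RPM in the other 6 MI+CIH libraries, a gap of 0.629 of the range. Both libraries belong to set B.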

How the results depend on the processing

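Set A holds 11 of 20 libraries, with all sham and CIH libraries among them. In comparisons of MI or MI+CIH with sham or CIH, group and set are therefore separable only through MI 2 and MI+CIH 1. In MI+CIH against sham, the count of 6 members past the threshold became 16 with the filter of 0.5 RPM, 8 with that of 1 read, 2 with DESeq2, and 0 with median-of-ratios scaling, TMM scaling, edgeR, the library set as a term, or that term with the filter of 0.5 RPM. In MI+CIH against CIH, the count of 6 became 17 with the filter of 0.5 RPM, 9 with that of 1 read, 4 with DESeq2, 2 with median-of-ratios scaling, TMM scaling and edgeR, and 0 with the set term at either filter. Leaving out each library gave 4 to 7 in both contrasts. The share of all miRNAs called then ran from 41.1% to 66.6% against sham and from 45.0% to 65.2% against CIH. Of the members, 6 were tested without MI 1, MI+CIH 3 or MI+CIH 5, 7 without MI+CIH 4 and 8 without MI+CIH 2. In MI against sham, leaving out each library gave 0 to 2. It was 2 without MI 2 (beside 31.4% of all miRNAs), and 2 without sham 1 and MI 2 together (beside 31.8%). The cause of these shifts was not tested, except that a lower filter tests more rows and leaving out some libraries tests fewer members.

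Deviations from the group mean were correlated between same-numbered libraries. The range was -0.711 to 0.867, with 10 of 25 pairs over 0.1. Pairs with different numbers were not compared, so whether the numbers mark a pairing was not tested. With the number as a replicate block, 8 of 9 members were called in MI+CIH against sham, beside 60.6% of all miRNAs. In MI+CIH against CIH it was also 8 of 9, beside 58.6%. Counted once, both were 6 of 7. The other contrasts had 0 members, beside 0.0% of all miRNAs.

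The mean sum without repeated reads was 37.7 RPM in sham and 32.7 in CIH. With median-of-ratios scaling the mean sums were 88.04 (sham), 97.4 (CIH) and 146 (MI+CIH), and with TMM scaling 98.2, 105 and 136. In set A alone the sum was 42.9 RPM for MI and 116 for MI+CIH. Leaving out each library gave 55.7 to 61.1 RPM in sham, 134 to 213 in MI, 49.7 to 55.8 in CIH and 222 to 278 in MI+CIH. The mean number of rows detected, in the order sham, MI, CIH and MI+CIH, was 18.0, 29.0, 17.5 and 30.3 with at least 3 reads, 13.4, 21.5, 11.25 and 26.3 with at least 0.5 RPM, and 19.0, 26.8, 16.9 and 30.0 after thinning. Leaving out each library gave 29.75 to 34.0, 37.0 to 42.7, 30.0 to 32.7 and 38.8 to 41.2 rows with a read.

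Estimates that changed sign in MI+CIH against sham were miR-466i-5p with the set term (-0.35 at either filter), miR-467c-5p with TMM scaling (-0.18), edgeR (-0.11) and the set term (-0.10 at either filter), and miR-669a-5p with median-of-ratios scaling (-0.13), TMM scaling (-0.31), edgeR (-0.33) and DESeq2 (-0.10). In MI+CIH against CIH they were miR-467a-5p and miR-467b-5p with TMM scaling (-0.048), miR-466i-5p with the set term (-0.78 at either filter), miR-467c-5p with TMM scaling (-0.0073), and miR-669a-5p with median-of-ratios scaling (-0.19), TMM scaling (-0.34), edgeR (-0.34) and DESeq2 (-0.16). The mean level of 43 of the 62 members was under 1 RPM, below the limit that a count of 0 allows in the shallowest library (1.51 RPM).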
